A study of Homo sapiens with 4 samples.

Results

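The genes described here code for the nuclear-encoded subunits of the mitochondrial respiratory chain and of the ATP synthase. They were chosen by symbol in the platform annotation: every protein-coding gene whose name starts with NDUFA, NDUFB, NDUFC, NDUFS, NDUFV, UQCR, COX4, COX5, COX6, COX7, COX8 or ATP5, together with CYC1 and the succinate dehydrogenase genes. NDUFAF assembly factors, the hypoxia-linked gene COXFA4L2 (older name NDUFA4L2) and pseudogenes were left out. The rule itself uses symbols and no measured value, but it was chosen with earlier results of these data known. It found 84 of the 19090 genes with a named probe: 36 for complex I, 3 for complex II, 9 for complex III, 17 for complex IV and 19 for complex V, the ATP synthase. SDHB and UQCRFS1 were not analysed here, and neither were the 13 subunits that the mitochondrial genome encodes. The names also bring in a few relatives of true subunits: ATP5IF1, which inhibits the ATP synthase, COX7A2L, which joins complexes III and IV into supercomplexes, and the gene copies UQCRHL and ATP5MGL.

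The respiratory chain passes electrons from NADH (at complex I) or succinate (at complex II) through ubiquinone, complex III and cytochrome c to oxygen at complex IV. Complexes I, III and IV pump protons across the inner membrane, and complex V uses the returning protons to make ATP. Apart from complex II, each complex joins subunits from nuclear genes with a few made inside the mitochondrion, and hepatocytes hold many mitochondria to power synthesis and detoxification.

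The cells are labelled HepG2, an established human line of liver tumour origin. Each culture took up 1 of 4 small RNA duplexes with the help of the transfection reagent INTERFERin, and the labels give no further difference between cultures. The control group (NC) received a duplex with no match in the human genome, the second group the miR-214 mimic, which stands in for a microRNA, and the others siPVT1-1 or siPVT1-2, siRNAs that target PVT1, a long RNA that codes for no protein. Total RNA of each group was amplified, labelled with Cy5 and hybridised to 1 OneArray Plus array of 28264 probes. With 1 array per group no difference has a replicate check, so none carries a p-value, and every difference from NC rests on the same control array. PVT1 itself was not analysed here, since no probe named for 1 gene carries its symbol, and its knockdown is unchecked. In bulk RNA, fewer expressing cells and less RNA per cell cannot be told apart.

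The series sets miR-214 beside PVT1, and the mature strands of miR-214 are shown because 1 of the 4 arrays measures its mimic. They come from RefSeq (GRCh38.p14, minus strand, chr1:172138816-172138837 for the 3p and chr1:172138857-172138878 for the 5p strand), with the seed, bases 2 to 8, in capitals. The labels leave unsaid which of both strands the mimic delivers.
hsa-miR-214-3p: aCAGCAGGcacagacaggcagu
hsa-miR-214-5p: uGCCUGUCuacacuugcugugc

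Promoters of respiratory chain genes are known for binding sites of nuclear respiratory factor NRF1 and of ETS factors such as GABPA (NRF2), which drive many of these genes together. RefSeq promoter windows of 300 bases, from 250 before to 50 after each gene's start, were at hand for 68 of the 84 members. The palindromic core of the NRF1 site, spelled by the first run of capitals in the NDUFA8 and SDHD promoters below, stood in 4 of the 68 windows (5.88%) and in 1.36% of all 27305 windows, or 1.75% of the 15842 windows of protein-coding genes. CCGGAAG, an ETS core, was found in 19 members (27.9%), against 10.7% of all windows and 14.2% of protein-coding ones. The YY1 letters AAGATGGCG stood in 7 members (10.3%) in 1.85% of all windows and in 2.74% of protein-coding ones, and TATAAA, the TATA box, in 10.3% of members, 12% of all windows and 9.63% of protein-coding ones. All motifs were searched on both strands. The NRF1 letters do not overlap the ETS letters in any window shown. These are matches of letters within a short window and say nothing about binding in these cells.

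A set of 3 promoters is printed for the members on which the results below turn. NDUFA8, the complex I gene with the widest range over the arrays, carries the NRF1 letters across its start (chr9:122159730-122160029, minus strand). COX7A2L, which lay lowest with the mimic, has neither motif (chr2:42361168-42361467, minus strand). SDHD, an anchor of complex II, is the 1 member with both (chr11:112086623-112086922, plus strand). Capitals mark the NRF1 and ETS letters in either orientation.
NDUFA8: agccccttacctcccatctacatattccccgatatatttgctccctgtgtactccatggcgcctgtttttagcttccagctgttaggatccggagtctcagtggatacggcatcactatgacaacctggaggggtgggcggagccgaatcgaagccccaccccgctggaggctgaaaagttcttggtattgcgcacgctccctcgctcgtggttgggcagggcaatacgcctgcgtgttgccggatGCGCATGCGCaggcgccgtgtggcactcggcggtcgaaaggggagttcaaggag
COX7A2L: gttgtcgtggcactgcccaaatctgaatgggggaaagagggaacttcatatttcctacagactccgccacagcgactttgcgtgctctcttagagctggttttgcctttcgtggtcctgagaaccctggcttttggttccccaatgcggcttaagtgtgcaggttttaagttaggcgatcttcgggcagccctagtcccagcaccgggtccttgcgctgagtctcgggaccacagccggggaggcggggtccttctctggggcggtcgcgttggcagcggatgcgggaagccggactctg
SDHD: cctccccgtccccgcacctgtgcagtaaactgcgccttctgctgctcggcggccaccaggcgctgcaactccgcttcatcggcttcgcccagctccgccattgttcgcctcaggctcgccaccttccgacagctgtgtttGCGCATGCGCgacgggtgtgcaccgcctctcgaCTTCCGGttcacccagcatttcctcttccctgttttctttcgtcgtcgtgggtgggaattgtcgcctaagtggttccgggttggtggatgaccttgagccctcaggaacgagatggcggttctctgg

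Levels are log2 values after quantile normalization, with a lower limit (floor) of 64 before the log, and a difference is the log2 level on 1 array minus that on another. A gene was compared when its mean log2 level over the 4 arrays exceeded 9.72, the median of all probes, and it lay above the floor on every array. This left 75 of the 84 members and 10666 of all genes. NDUFC2, at 9.71 on NC and 9.81 to 10.19 elsewhere, passed only through the treated arrays. The 9 members left out were ATP5F1A, ATP5MGL, COX4I2, COX6A2, COX6B2, COX7A1, COX7B2, COX8C and NDUFS1. Each gene takes its values from the brightest of its probes and was called higher or lower at a difference of at least 2-fold, with 1.5-fold as a second rule. The deposited values of the brightest member reached 64.5 to 75% of the highest value on its array, and 73 members passed the 75th percentile of all probes. The highest values crowded most on the NC array, where 8 probes lay within 1% of the maximum, against 4, 1 and 1 on the mimic, siPVT1-1 and siPVT1-2 arrays.

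The labelled cell type was set beside its markers. Of 8 hepatocyte genes with a probe, 2 were above the filter, and albumin (ALB), the main plasma protein made by liver, lay at log2 levels of 6.70 to 6.94, near the floor. These levels do not bear out the label by its usual markers, and HepG2 is used here only as the name given.

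Respiratory chain and ATP synthase genes varied within narrow bounds over the 4 arrays. With the mimic 0 of 75 members passed 2-fold in either direction, where 4.79% of all compared genes did (1.95% higher and 2.84% lower). With siPVT1-1 the count was 1, the complex I gene NDUFA8, against 2.96% of all genes (1.25% higher and 1.72% lower). With siPVT1-2 it was 0 against 2.53% (1.33% higher and 1.2% lower). From the lowest to the highest of its 4 values, the median member spanned 1.27-fold and the median compared gene 1.37-fold. The span was under 1.5-fold for 62 of 75 members (82.7%) and for 66.2% of all compared genes, and it reached 2-fold for 1 member (1.3%) and for 8.3% of all.

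By the 1.5-fold rule 7 members were higher and 2 lower with the mimic. This is 9.3% and 2.7% of members, where 9.46% of all genes were higher and 9.42% lower, 18.9% together. With siPVT1-1 there were 2 higher members (6.72% of all genes were higher and 6.45% lower) and with siPVT1-2 again 2 (7.47% and 5.8%), with 0 lower members on each. Either way, 13.2 and 13.3% of all genes passed with the siRNAs. After quantile normalization the share of higher members is at or under that of all genes, and lower calls were fewer. The first part depends on the scaling. With each array centred on its median, higher and lower members were 24 and 0, 14 and 0, and 13 and 0 for the mimic, siPVT1-1 and siPVT1-2. Higher were thus 32.0, 18.7 and 17.3% of members, above the 15.2, 10.4 and 14.2% of all genes. With the values as deposited, 17.3, 4.0 and 4.0% of members were higher, beside 8.7, 5.5 and 5.4% of all genes.

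Small differences leaned upward after quantile normalization, least with siPVT1-2. The median member difference from NC was 0.14 with the mimic, 0.11 with siPVT1-1 and 0.05 with siPVT1-2, beside medians of -0.02, 0.01 and -0.01 over all compared genes. Above 0 were 47, 58 and 44 of 75 members. With cyclic loess the siPVT1-2 median was 0.01, with 39 of 75 above 0, so hardly any lean was left there. The mimic and siPVT1-1 then had medians of 0.09 each, with 46 and 55 above 0. The NC array gave the lowest of the 4 values for 34 members (45.3%) and for 30.1% of all genes. To lie above NC on all 3 treated arrays is the same property, so it gives no further count. Since the treated arrays share NC, these counts are not independent of each other. NDUFC2, which passed the filter only through the treated arrays, is above 0 on each after quantile normalization and is among the 34.

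**Figure D1:**
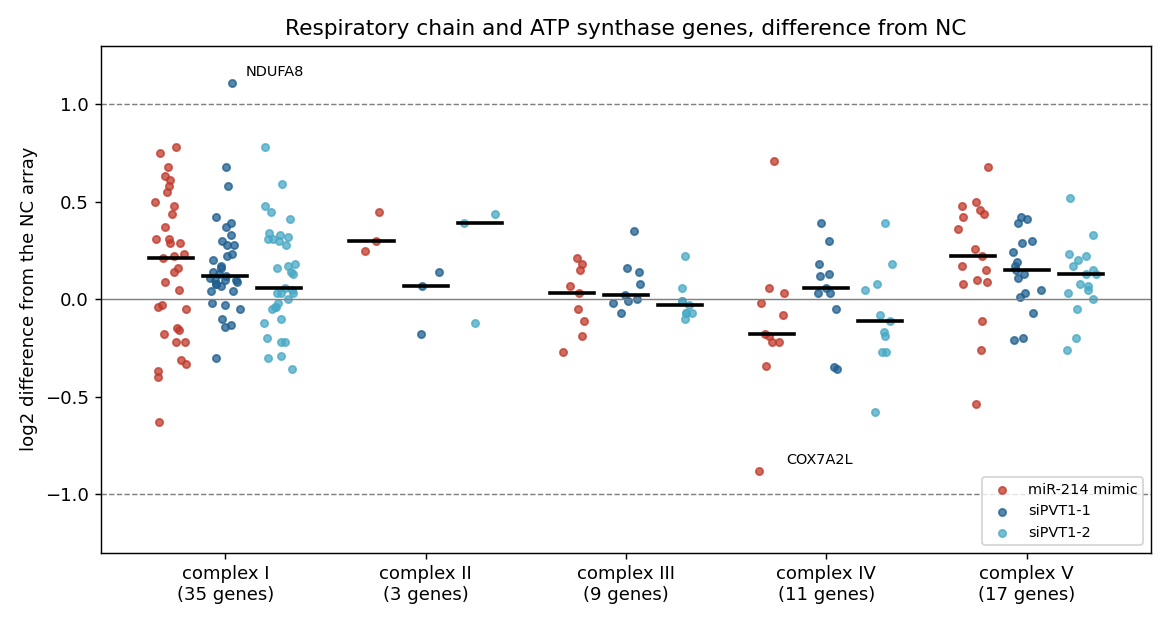
Each point is 1 compared member, placed by its complex (horizontal axis, with the number of genes) and by its log2 difference from the NC array (vertical axis), in 1 colour per treated array; black bars are medians and dashed lines mark 2-fold. NDUFA8 with siPVT1-1 is the 1 point past a dashed line, and COX7A2L with the mimic is the lowest.

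Complex I, the NADH dehydrogenase, makes up 35 of the 75 compared members and held most of those past 1.5-fold. With the mimic 5 of the 35 were higher (14.3%) and 1 lower (2.9%), where 9.46 and 9.42% of all genes were. With each siRNA 2 were higher (5.7%) and 0 lower, beside 6.72 and 7.47% of all genes higher with siPVT1-1 and siPVT1-2. The 35 genes had medians of 0.21, 0.12 and 0.06 with the mimic, siPVT1-1 and siPVT1-2. NDUFA8, an accessory subunit facing the intermembrane space, had deposited intensities of 64660 on the NC array, 117398 with the mimic, 158433 with siPVT1-1 and 120136 with siPVT1-2. Its log2 levels after normalization were 16.10, 16.79, 17.21 and 16.88 in that order. NC is the low array and siPVT1-1 the high one, with differences from NC of 0.68, 1.11 and 0.78, or 1.61-fold, 2.16-fold and 1.72-fold. A second NDUFA8 probe gave 0.43, 0.79 and 0.47, in the same direction and order but under 2-fold.

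Other accessory genes of complex I were above NC on some arrays. NDUFB3, in the membrane arm, stood at log2 levels of 13.48, 14.26, 14.06 and 13.96 on NC, mimic, siPVT1-1 and siPVT1-2. NC was the low array, and its second probe gave differences of 0.51, 0.73 and 0.62 beside 0.78, 0.58 and 0.48. NDUFB6, another membrane arm gene, stood at 14.98, 15.48, 15.66 and 15.43, so that siPVT1-1 passed 1.5-fold (0.68). NDUFA9, of the arm that reaches into the matrix, stood at 14.81, 15.25, 15.22 and 15.40, with siPVT1-2 past 1.5-fold (0.59).

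A further set was highest on the mimic array by the brightest probe. NDUFA5, of the matrix arm, stood at 13.80, 14.55, 13.77 and 14.11, and the mimic was 0.75 above NC and 0.61 above the mean of both siPVT1 arrays. Its other probe, under the level filter, did not repeat this (-0.10 from NC). NDUFB5 (0.63) and NDUFA3 (0.61) also passed 1.5-fold with the mimic, and NDUFAB1, the mitochondrial acyl carrier protein, stood just under it (0.58). With siPVT1-1 and siPVT1-2, NDUFB5 gave 0.33 and 0.41, NDUFA3 0.13 and 0.18, and NDUFAB1 0.22 and 0.34. A second NDUFB5 probe gave 0.19, 0.23 and 0.25, so by that probe the mimic was not the highest. NDUFA7, an accessory gene of the matrix arm, lay in the opposite direction, at 16.30, 15.67, 16.25 and 15.95, and was called lower with the mimic by the 1.5-fold rule (-0.63).

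The core subunits of the matrix arm, most of which carry the flavin or iron-sulfur clusters, differed less. Among 5 compared genes, 1 was above NC with the mimic: NDUFS3, at 16.41, 16.96, 16.53 and 16.74, with a second probe at 0.19 where the first gave 0.55. NDUFS7, which holds the last cluster before ubiquinone, was below NC on each treated array (-0.37, -0.30 and -0.30). With the arrays centred on their medians the siPVT1-2 value of NDUFS7 turned to 0.01. NDUFS8 (-0.22, 0.04 and -0.02), the flavin subunit NDUFV1 (-0.22, -0.10 and 0.14) and NDUFV2 (-0.03, 0.07 and -0.10) had values on both sides of 0. NDUFS1 lay at the floor on every array and has no measured difference.

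Taken as whole families, those described above included, the 11 NDUFB genes had medians of 0.09, 0.23 and 0.06 with the mimic, siPVT1-1 and siPVT1-2, and the 12 numbered NDUFA genes 0.17, 0.10 and 0.04. NDUFS6, a zinc-binding subunit of the matrix arm, lay at 18.51 on NC and at 18.82, 18.81 and 18.81 on the others, or 0.31, 0.30 and 0.30 above NC. NDUFB10 (0.05, 0.04 and 0.13) and NDUFB8 (0.09, 0.08 and -0.04) spanned 1.09-fold each over the 4 arrays. Other probes above the filter disagreed for NDUFA2 (-0.16 with the mimic, where the brightest gave 0.31), NDUFA6 (0.33 against -0.16), NDUFB9 (-0.13 against 0.37) and NDUFV3 (-0.40 against 0.16), so no direction can be given for these genes on the mimic array.

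**Figure D2:**
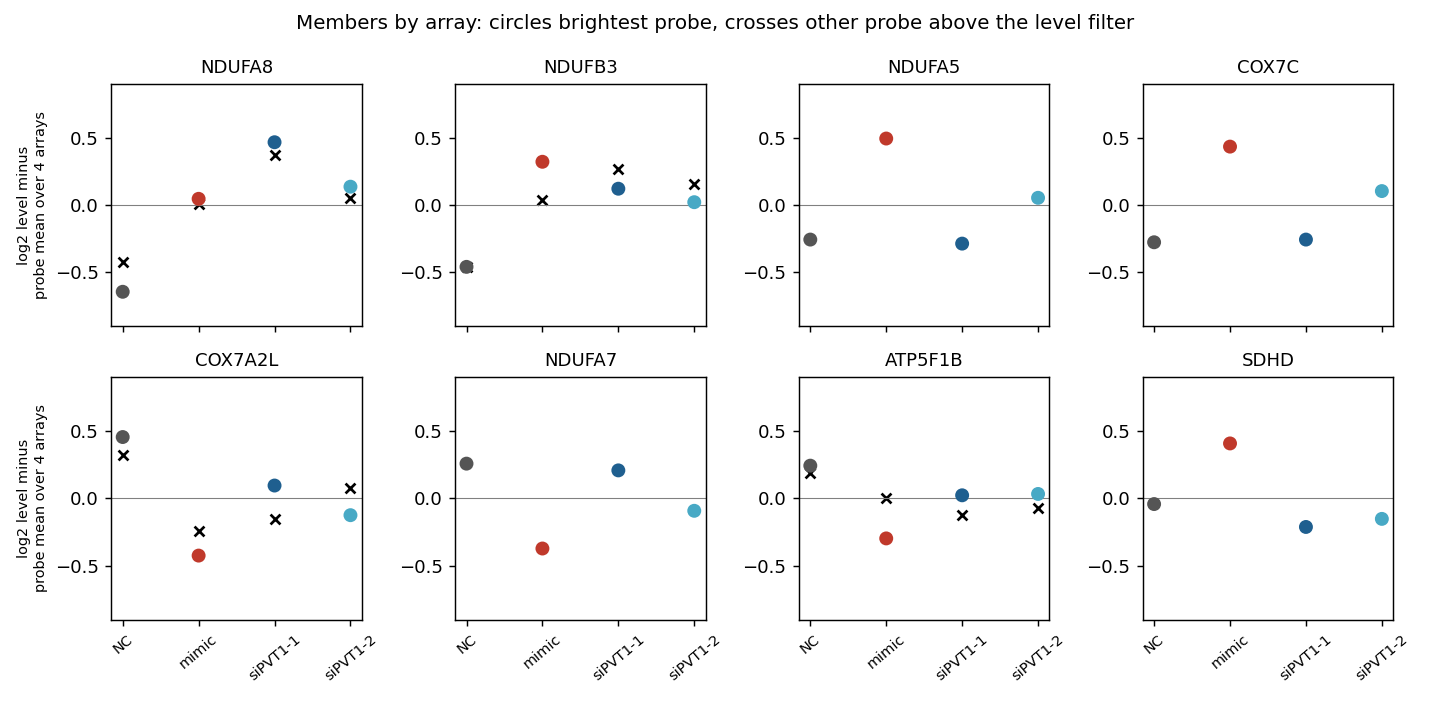
Log2 level of 8 members on each array, minus the probe's own mean over the 4 arrays (vertical axis), with circles for the brightest probe and crosses for another probe above the level filter. NDUFA8 and NDUFB3 are low on NC by both probes, COX7A2L is high on NC by both, and NDUFA5, COX7C and SDHD are high on the mimic array.

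Complex II, succinate dehydrogenase, links the citric acid cycle to the chain and is the 1 complex made only of nuclear subunits. SDHA, its flavoprotein, stood at 16.58, 16.89, 16.73 and 17.02 on NC, mimic, siPVT1-1 and siPVT1-2. SDHC, a membrane anchor, stood at 16.17, 16.42, 16.24 and 16.56, so both were highest with siPVT1-2 (0.44 and 0.39). The other SDHC probe went against this, at -0.30 with siPVT1-2 and -0.53 with the mimic, and between the siPVT1 arrays its probes gave -0.32 and 0.64. SDHD, the second anchor, followed another order: 15.38, 15.83, 15.21 and 15.27, with the mimic 0.60 above the mean of the siPVT1 arrays and past 1.5-fold there.

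Complex III, the cytochrome bc1 complex, had 0 of 9 genes past 1.5-fold on any treated array by the brightest probes. Of all compared genes 18.9, 13.2 and 13.3% passed either way with the mimic, siPVT1-1 and siPVT1-2. With 9 genes, a count of 0 cannot be set apart from these shares. Its median absolute differences from NC were 0.15, 0.07 and 0.07, where all compared genes had 0.28, 0.23 and 0.25. CYC1, the cytochrome c1 that hands electrons to cytochrome c, stood at 16.37, 16.40, 16.30 and 16.34, a span of 1.07-fold. The core proteins UQCRC1 (-0.27, 0.02 and -0.07) and UQCRC2 (-0.19, -0.02 and -0.01) were a little lower on the mimic array than elsewhere. UQCRB reached 0.35 with siPVT1-1, at a dim level of 10.66 on NC. UQCRH, the hinge protein, gave 0.15, 0.08 and -0.01, and its near-identical copy UQCRHL 0.21, 0.16 and 0.22; their probes may each read both genes, so neither value is certain. UQCR10, a small subunit, gave -0.05, 0.14 and -0.07, but a second probe above the filter gave -0.39, -0.41 and -0.57. UQCRQ stood at -0.11, 0.00 and -0.10, while a second probe under the filter gave 0.62 with siPVT1-2.

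Complex IV, cytochrome c oxidase, had a lower median than complexes I and V on the mimic array. Its 11 compared genes had a median of -0.18 with the mimic and 8 lay below 0. That median was -0.08 with the mean of probes and -0.01 with the values as deposited, and its sign turned with median centring (0.15), so whether complex IV lies below NC depends on the scaling. With siPVT1-1 the median was 0.06 (-0.04 with cyclic loess) and with siPVT1-2 it was -0.11 (0.24 with median centring). Set against the mean of the siPVT1 arrays, which leaves NC out, the mimic median was -0.15 and again 8 of 11 lay below 0. That value ran from -0.18 to -0.05 over the alternatives. Under each of the 4 scalings, the complex IV median with the mimic lay under those of complexes I, II, III and V. Median centring multiplies each deposited array by a constant. It therefore orders the complexes as the deposited values do and is not a separate check.

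COX7A2L had the lowest value of any member. Its log2 levels were 16.32 on NC, 15.44 with the mimic, 15.96 with siPVT1-1 and 15.74 with siPVT1-2, so NC was high and the mimic low. The differences of -0.88, -0.35 and -0.58 amount to 1.84-fold, 1.28-fold and 1.50-fold. A second probe was below NC too, by -0.56, -0.47 and -0.25, with siPVT1-1 and siPVT1-2 in the opposite order. Of the 3 complex IV genes above 0 with the mimic, COX7C, a small structural subunit, was the 1 past 1.5-fold. It stood at 17.15, 17.86, 17.17 and 17.53, or 0.71 above NC with the mimic and 0.50 above the siPVT1 mean.

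The other widely expressed subunits of complex IV stayed within 1.5-fold of NC. COX4I1, a regulatory subunit that binds ATP, gave -0.08, -0.05 and -0.27 with the mimic, siPVT1-1 and siPVT1-2. COX5A gave -0.19, -0.36 and -0.17, COX5B -0.22, 0.03 and -0.11, and COX6A1 -0.02, 0.06 and -0.08. COX6B1, which faces cytochrome c, stood at 18.16 with siPVT1-1 and at 17.77 on NC, and a second probe gave 0.67 beside 0.39. On the mimic array COX6B1 lay at 17.54, and the difference of -0.44 from the siPVT1 mean was the lowest of all members. COX6C gave -0.34, 0.18 and -0.27, but its second probe 0.18, 0.09 and 0.02. COX7A2 (0.03, 0.30 and 0.18), COX7B (-0.18, 0.12 and -0.19) and COX8A (0.06, 0.13 and 0.08) complete the set. The COX7B value is uncertain, since of its other probes above the filter 1 gave -0.04, 0.20 and -0.07 and another 0.38, 0.00 and 0.23.

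Several positions in complex IV can be filled by a second, tissue-restricted gene product. All 6 of these genes lay under the filter: the lung and hypoxia isoform COX4I2 at log2 levels of 7.88 to 8.12, the heart and muscle isoforms COX6A2 at 7.22 to 7.44 and COX7A1 at 6.70 to 7.14, and the testis isoforms COX6B2 at 9.52 to 9.77 and COX7B2 at 7.17 to 7.83. COX8C was at the floor on every array. No member of this set was ranked or counted, and the widely expressed gene for each position was above the filter.

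In complex V the parts of the enzyme differed from each other. The catalytic beta subunit gene ATP5F1B stood at 18.58 on NC, 18.04 with the mimic, 18.36 with siPVT1-1 and 18.37 with siPVT1-2. It was thus among the 3 lowest members with the mimic (-0.54), and a second probe gave -0.19. The gamma subunit ATP5F1C, the rotating shaft, spanned only 1.05-fold. ATP5F1E gave 0.46, -0.07 and 0.15 with a like second probe (0.42, 0.10 and 0.29), and ATP5F1D gave 0.17, -0.20 and -0.26, with a second probe that turned the sign for both siRNAs (0.22, 0.28 and 0.02). ATP5F1A, the alpha subunit, was under the filter with levels of 8.89 to 9.41.

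The stalk that holds the ATP synthase head still showed its clearest difference in ATP5PB, subunit b. ATP5PB stood at 16.90, 17.58, 17.07 and 17.42, with the mimic 0.68 and siPVT1-2 0.52 above NC. ATP5PO gave 0.36, 0.11 and 0.05 by its brightest probe, while its other probes gave -0.22 and 0.38 with the mimic. ATP5PF (0.22, 0.29 and 0.13) and ATP5PD (-0.11, 0.01 and 0.08) differed less.

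The membrane part of complex V lay above NC on nearly all arrays. The 5 accessory genes of the membrane part had medians of 0.44, 0.30 and 0.20, and the single value below 0 was ATP5MJ with siPVT1-2 (-0.05). ATP5MK, which helps to pair the enzymes into dimers, stood at 15.98, 16.48, 16.37 and 16.21, with a second probe at 0.40, 0.22 and 0.12. ATP5MF (0.48, 0.42 and 0.20) and ATP5ME (0.44, 0.30 and 0.33) followed a like course. NC is the low array for 4 of these 5 genes, and all 3 differences share its value.

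The rotating c-ring is made from ATP5MC1, ATP5MC2 and ATP5MC3, which differ in their import signals but yield the same mature protein. ATP5MC1 stood at 18.05, 17.79, 18.29 and 18.06, lowest with the mimic, though a second probe gave 0.21 there. ATP5MC2 (0.26, 0.15 and 0.13) and ATP5MC3 (0.15, 0.41 and 0.23) were above NC on each array. ATP5IF1, the inhibitor that stops the enzyme from running backward, gave 0.42, 0.13 and 0.03.

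The siPVT1 arrays differed little from each other for these genes. Between siPVT1-1 and siPVT1-2, 0 of 75 members differed by 2-fold (0.497% of all genes did, 0.0938% higher and 0.403% lower with siPVT1-1) and 0 by 1.5-fold (3.32%, of which 0.966% higher and 2.35% lower). The median absolute difference was 0.14 for members and 0.18 for all genes. At the ends of the range stood COX6C (0.45), NDUFS4 (0.41) and NDUFB4 (0.36), higher with siPVT1-1, and COX7C (-0.36), ATP5PB (-0.35) and NDUFA5 (-0.34). The last 3 were each highest on the mimic array.

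The mimic was also set against the mean of both siPVT1 arrays, a difference that does not use NC. By 2-fold 0 members passed, where 1.82% of all genes did (0.469% higher and 1.35% lower). By 1.5-fold 2 members were higher (3.7% of all genes) and 0 lower (4.31%, or 8.02% in all): NDUFA5 (0.61) and SDHD (0.60). The median over members was 0.01, with 38 of 75 above 0, so the upward lean seen against NC was not present here. COX6B1 (-0.44), NDUFA7 (-0.43) and COX7A2L (-0.41) were lowest.

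Pairs of probes for the same gene show how far a difference between arrays depends on the probe. Both probes read the same RNA, so their gap does not measure the spread between repeated arrays. Among 28 members with a pair above the filter, both probes had the same sign of difference from NC in 19, 20 and 19 for the mimic, siPVT1-1 and siPVT1-2, and the median gap between them was 0.29, 0.14 and 0.25. Over 2214 genes with such a pair the gaps were 0.33, 0.18 and 0.23. Among the paired members 4 passed 1.5-fold with the mimic by the brightest probe, and 0 of them did so by both. With siPVT1-1 the 1 such member, NDUFA8, passed by both, and with siPVT1-2 it passed by 1 probe. The widest gap in a difference from NC, 0.91, was that of NDUFC1 with siPVT1-1, whose probes gave 0.20 and 1.11.

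**Figure D3:**
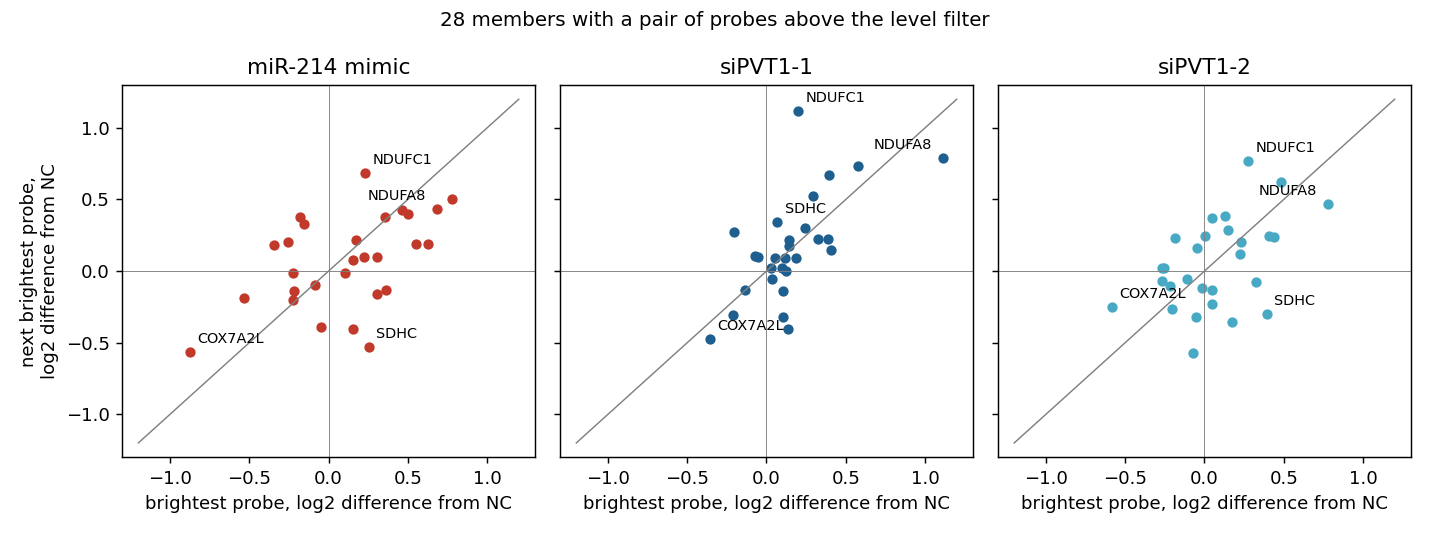
Log2 difference from NC by the brightest probe (horizontal axis) and by the next brightest probe (vertical axis) for 28 members, 1 panel per treated array; the slanted line marks equal values. NDUFA8 lies high and COX7A2L low by both probes in every panel, while SDHC falls on opposite sides of 0 for the mimic and siPVT1-2.

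Scaling moved these bright genes more than most. With median centring the median of all compared genes itself shifted to 0.11, 0.11 and 0.16, and members lay at 0.39, 0.38 and 0.35. Genes as bright as most members shifted alike: over 618 genes above a log2 level of 16, the medians were 0.34, 0.34 and 0.35, and the 50 members among them had 0.36, 0.42 and 0.36. After quantile normalization the 618 genes at that level had medians of 0.01, 0.02 and 0.01, and the 50 members 0.07, 0.11 and 0.03. With cyclic loess the 50 members had 0.02, 0.1 and -0.02, beside -0.01, 0.0 and -0.03 over 617 genes.

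**Figure D4:**
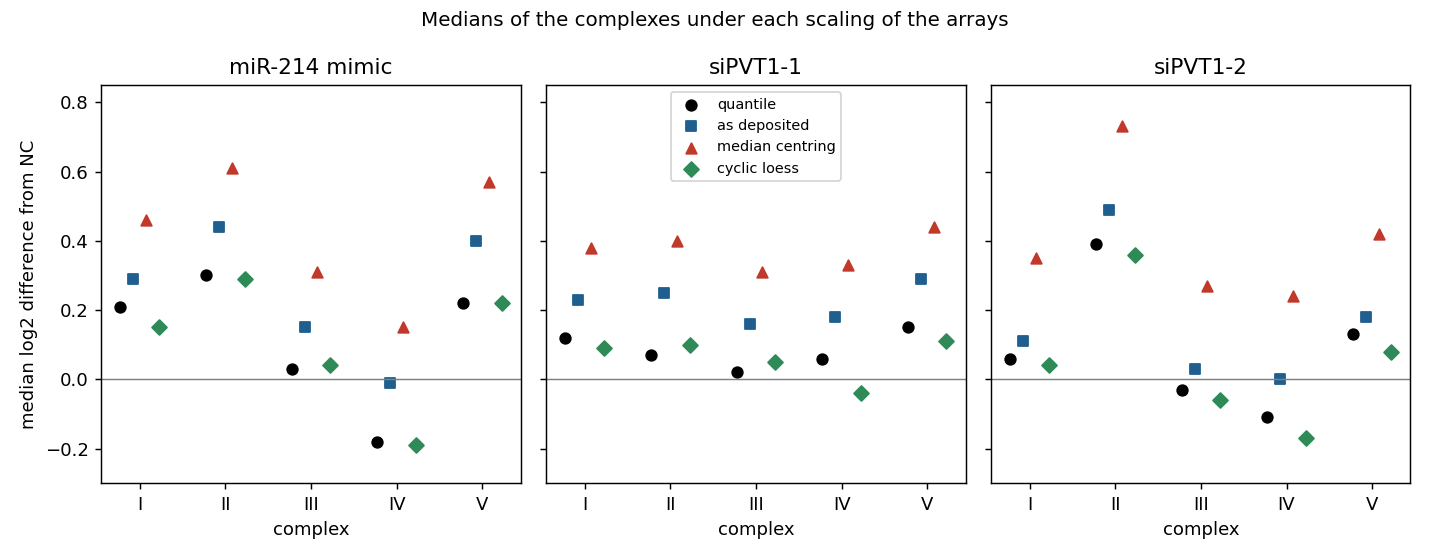
Median log2 difference from NC of each complex (vertical axis) on each treated array, with 1 symbol for each way of bringing the arrays to a common scale. Median centring lifts every complex, and with the mimic complex IV is the lowest complex under all 4 scalings (-0.18 after quantile normalization, 0.15 with median centring). The deposited and median-centred values differ by a constant per array, so their order of complexes is the same by construction.

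Genes that build or supply the chain are given by count, beside the 18.9, 13.2 and 13.3% of all compared genes that passed 1.5-fold either way with the mimic, siPVT1-1 and siPVT1-2 and the 4.79, 2.96 and 2.53% that passed 2-fold. Of 48 compared assembly factors, 1 was lower by 2-fold with the mimic and 0 higher, and by 1.5-fold 8 were higher (16.7%) and 2 lower (4.2%). The lower gene was SURF1, which helps to assemble complex IV, at 15.83, 14.78, 15.33 and 15.24; its differences of -1.05, -0.50 and -0.60 stood beside -0.37, -0.31 and -0.25 by a second probe. UQCC1, an assembly factor of complex III, stood at 10.78, 11.76, 11.44 and 11.85 and passed 2-fold with siPVT1-2 (1.07). PET100, another complex IV factor, gave 0.84, 0.52 and 0.67. With siPVT1-1 3 of 48 were higher (6.2%) and 1 lower (2.1%) by 1.5-fold, and with siPVT1-2 5 (10.4%) and 2 (4.2%).

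Citric acid cycle enzymes, which feed the chain with NADH and succinate, lay mostly below NC on the mimic array after quantile normalization. This list was not recomputed under other scalings. Median centring moved the mimic median of all genes at log2 levels of 14 to 16 from -0.02 to 0.23. Whether these enzymes lie below NC may therefore depend on the scaling. Of 10 compared genes 9 were below 0, where 51.9% of all genes were, with a median of -0.26, and the medians were -0.18 and -0.09 with siPVT1-1 and siPVT1-2. By their brightest probes all 10 lay below the siPVT1 mean on the mimic array (-0.42 to -0.03), where 52.0% of all genes did. DLD, a shared dehydrogenase subunit, was at -0.62, -0.46 and -0.43, but a second probe gave 0.45, -0.66 and 0.05, and 0.76 against the siPVT1 mean. OGDH, the oxoglutarate dehydrogenase, was the exception at 0.78, 0.67 and 1.05, past 2-fold with siPVT1-2. IDH3B gave -0.54, -0.31 and -0.42, with a second probe at -0.37, 0.02 and -0.08.

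Among 12 compared regulators of mitochondrial biogenesis, 1 was higher and 1 lower by 2-fold with the mimic, and 0 passed with either siRNA. GABPB1, a partner of the ETS factor GABPA, gave 1.33, 0.10 and 0.44, with a dim second probe at -0.14 with the mimic. CREB1, a cyclic AMP responsive factor, gave -1.13, -0.52 and -0.92, with -0.70, -0.79 and -0.71 by a second probe. TFB1M, which methylates mitochondrial ribosomal RNA, gave 0.91, 0.49 and 0.70 and a like second probe (1.18, 0.55 and 0.71).

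Of 7 compared genes of the hypoxic switch of respiration, 2 were higher by 2-fold with the mimic and 1 with each siRNA. COXFA4L2, which replaces a complex IV subunit in low oxygen, was the 1 called on all 3 arrays (1.96, 1.84 and 1.91). Its NC level of 8.43 lies under the filter of 9.72, and it was counted only through the treated arrays (10.27 to 10.39), so its call carries no weight as a count. The mitophagy receptor BNIP3 gave 1.10, 0.72 and 0.79. HIGD1A, a small hypoxia-induced protein of complex IV, gave -0.85, -0.20 and -0.52. The 15 compared carriers and ubiquinone synthesis genes held 1 gene past 1.5-fold on each treated array, the ATP/ADP carrier SLC25A4 (0.85, 0.80 and 0.82), and the uncoupling protein UCP2 gave -0.54, 0.13 and -0.18. Of 10 mitochondrial chaperones and proteases, 0, 1 and 2 were lower by 1.5-fold, the protease genes YME1L1 (-0.52, -0.68 and -0.60) and LONP1 (-0.16, -0.37 and -0.78), and 0 were higher.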

How the data were processed

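The members and gene lists were chosen with earlier results of these data known. The authors deposited linear intensities, and values below 0 (74 to 131 of 28264 probes per array) show that background was already subtracted; the scanner software is not stated in the labels. RNA was amplified, labelled with Cy5 and read in 1 colour, per the labels' protocols. Arrays were brought to one distribution by quantile normalization (limma 3.58.1, R 4.3.3). Values under 64 were raised to it before the log2, which compresses the fold changes of dim genes. Before normalization 8.1 to 11.7% of values lay under 64. Probes were named from the platform annotation: 25893 carried 1 gene, and the other 2371, with no gene or more than 1, were left out. All symbols were updated by Entrez identifier through RefSeq GRCh38.p14. The text names members past 2-fold, the 3 highest and 3 lowest of each of the 5 comparisons, isoform families, core subunits and members whose other probe passed 1.5-fold in the opposite direction (SDHC and UQCRQ); further members were picked after their values were seen. Counts use the rule of size alone. The number of arrays limits the precision, and the counting was tested on simulated data. Each count was also taken with median centring, with cyclic loess, with deposited values unscaled, with other level filters, with a floor of 16, with the mean of probes, and at 1.5-fold and 3-fold.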

Additional observations from a re-analysis of the deposited data

How the results depend on the processing

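With 1 array per group, nothing here separates an effect of a duplex from the spread between arrays, and the causes of the changes below were not tested. With median centring 1 member passed 2-fold with the mimic and 1 with siPVT1-2, where the quantile-normalized counts were 0. With the mean of probes 0 passed with siPVT1-1 in place of 1, as with a call at 3-fold. By 1.5-fold the counts were 9 with the mimic, 2 with siPVT1-1, 2 with siPVT1-2 and 2 for the mimic against the siPVT1 mean. The other 37 recomputed counts stayed within 1.5 times. Member medians moved to 0.39, 0.38 and 0.35 with median centring for the mimic, siPVT1-1 and siPVT1-2, and to 0.23 with the values as deposited for siPVT1-1. The median of the mimic against the siPVT1 mean, 0.01, turned to -0.03 with no level filter and to -0.02 with the mean of probes. The other 29 recomputed medians moved by less than 0.1 with the same sign. Among them, the siPVT1-2 median fell from 0.05 to 0.01 with cyclic loess. Among recomputed complex medians 31 moved by 0.1 or more and 144 did not, and among member differences 14 moved by 0.25 or more and 196 did not. No paired analysis was possible because each group has 1 array. No level below the floor can be compared.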
